A study of Mus musculus with 6 samples.

Results

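The genes described here are the ErbB receptors and EGF-family ligands of mouse epidermis: the receptor genes Egfr, Erbb2 and Erbb3, and the ligand genes Areg, Ereg, Epgn, Hbegf, Tgfa, Btc and Nrg1. They were chosen by gene symbol, with earlier results of these data known, and all 10 were found among the 24453 symbols counted. RNA had been sequenced from interfollicular epidermal cells of newborn back skin at postnatal day 0, sorted as EpCAM-positive, Sca1-positive cells with high α6-integrin. There were 3 Eed conditional knockout (Eed cKO) libraries, whose genotype is given as Eed-/-, and 3 control libraries whose genotype is given only as Control. The Eed protein belongs to Polycomb repressive complex 2, the enzyme complex that methylates lysine 27 of histone H3. The sources used here do not give the driver of the deletion, the deleted exons, any allele carried by the control mice, or whether each library came from its own animal. Each p-value therefore measures the spread between libraries, which may be technical apart from the sex difference described below.

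ErbB receptors are tyrosine kinases that pair on binding a ligand and signal through Ras and ERK, PI3K and STAT3. Most EGF-family ligands are made as membrane precursors and released by ADAM proteases, so that keratinocytes can stimulate themselves and their neighbours. In the epidermis the pathway is known for driving proliferation of basal cells, wound closure and hair follicle patterning. Egfr binds Areg, Ereg, Epgn, Hbegf, Tgfa and Btc, whereas Nrg1 binds Erbb3 and Erbb4, and Erbb2 has no ligand of its own and acts as a partner.

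The sequence of the start region is shown for the ligands whose windows were in the RefSeq promoter table (GRCm38.p6), which held 6 of the 10 genes. Each window is the 250 bases before RefSeq's start, 5′ to 3′ on the gene's strand. Gene positions given later are GENCODE's, and for Epgn its start lies upstream of RefSeq's, so the last 53 bases of that window fall inside the gene as placed there. Tgfa and Btc are shown first, since their CG content differs, and capitals mark CG pairs. The Tgfa window (chr6:86194972-86195221, plus strand) held 19 CG pairs, more than 80.3% of the 32851 mouse windows of that length. The Btc window (chr5:91402995-91403244, minus strand) held 4, more than 37.8% of them, against a median of 6.

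Tgfa: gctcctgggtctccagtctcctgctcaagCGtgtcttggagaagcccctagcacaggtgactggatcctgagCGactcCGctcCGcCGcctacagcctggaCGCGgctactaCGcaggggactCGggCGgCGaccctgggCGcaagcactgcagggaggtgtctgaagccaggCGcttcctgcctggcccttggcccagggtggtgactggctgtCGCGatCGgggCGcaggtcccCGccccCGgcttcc

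Btc: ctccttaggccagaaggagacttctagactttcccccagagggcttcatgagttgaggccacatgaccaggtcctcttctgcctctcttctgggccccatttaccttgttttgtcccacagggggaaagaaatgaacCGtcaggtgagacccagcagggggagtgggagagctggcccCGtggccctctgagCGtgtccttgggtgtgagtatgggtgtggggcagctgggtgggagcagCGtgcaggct

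Areg and Epgn are shown for 2 motifs searched on both strands, and capitals mark the matches. The Areg window (chr5:91139349-91139598, plus strand) held TGACGTCA, the cyclic AMP response element, which 1.55% of all windows hold, and TATAAA, the TATA box, which 12.4% hold. The Epgn window (chr5:91027267-91027516, plus strand) held TATAAA alone. Neither motif was in the Tgfa or Btc window, and the AP-1 motif TGAGTCA, held by 4.46% of windows, was in none of the 4. A match describes letters and is not evidence of binding.

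Areg: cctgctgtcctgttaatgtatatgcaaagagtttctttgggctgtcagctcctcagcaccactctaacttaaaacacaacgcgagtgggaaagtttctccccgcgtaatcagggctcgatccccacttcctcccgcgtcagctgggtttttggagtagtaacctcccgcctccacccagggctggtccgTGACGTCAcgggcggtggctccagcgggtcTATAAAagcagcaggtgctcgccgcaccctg

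Epgn: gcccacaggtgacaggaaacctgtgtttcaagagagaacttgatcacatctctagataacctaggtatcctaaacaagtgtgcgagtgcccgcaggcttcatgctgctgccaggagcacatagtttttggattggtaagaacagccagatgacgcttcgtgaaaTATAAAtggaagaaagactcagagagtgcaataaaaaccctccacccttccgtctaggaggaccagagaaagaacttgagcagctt

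Total counts were 20998149 to 27447679 in the Eed cKO libraries and 25481306 to 29998531 in the control libraries. Eed itself averaged 33.3 ± 3.90 CPM (counts per 1000000 counts of the TMM-scaled library) in Eed cKO and 46.4 ± 6.11 CPM in control (SD, n = 3 each; log2 fold change -0.48 ± 0.19, SE; edgeR adjusted p 0.252), and was not called. Eed shares 261 exonic bases with a transcript on the opposite strand. Ezh2, the methyltransferase of the complex, averaged 114 ± 27.0 CPM in Eed cKO and 183 ± 49.5 CPM in control (log2 fold change -0.69, edgeR adjusted p 0.120), and its relative Ezh1 45.2 ± 6.17 CPM in Eed cKO and 46.9 ± 4.57 CPM in control (log2 fold change -0.05). A whole-gene count checks a deletion of unknown exons little. One library stood apart: Xist was at 8.55 CPM in Eed cKO 2 against 5297 to 7757 CPM in the other 5 libraries. The Y-linked gene Ddx3y was at 121 CPM in Eed cKO 2 and at most 0.387 CPM in the other 5 libraries. By these genes Eed cKO 2 was male and the other 5 libraries female, so sex was not balanced between the groups. Eed cKO 2 therefore did not come from the same animal as Eed cKO 1 or 3. Whether the other libraries share animals remains unknown. Without Eed cKO 2 the log2 fold change was 2.41 for Nrg1, 1.41 for Hbegf and 1.04 for Tgfa (edgeR adjusted p 0.00288, 0.0395 and 0.188). The ribosomal RNA gene Rn45s had 72601, 68644 and 69700 CPM in Eed cKO and 53572, 20898 and 39291 CPM in control, without overlap (log2 fold change 0.89, edgeR adjusted p 0.0736), and its part in the results below was not tested. The 9 basal keratinocyte markers, led by Krt5 and Krt14, summed to 30570 to 40300 CPM in Eed cKO and 35800 to 42450 CPM in control, of which Krt5 alone averaged 22537 CPM in Eed cKO and 22623 CPM in control. Among them Epcam, used in the sort, rose (140 ± 17.4 CPM in Eed cKO and 82.1 ± 20.4 CPM in control; log2 fold change 0.77, edgeR adjusted p 0.0433). Trp63 (log2 fold change -0.37), Col17a1 (-0.37) and Krt15 (-0.37) did not overlap between the groups but did not pass (edgeR adjusted p 0.266, 0.278 and 0.394).

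In Eed cKO cells, 3 of the 7 ligand transcripts rose and none of the 3 receptor transcripts passed the test. Nrg1 rose 5.12-fold, Hbegf 2.58-fold and Tgfa 2.29-fold. By edgeR's quasi-likelihood test, adjusted by the Benjamini-Hochberg method over 14700 genes, 3.39% of genes were called higher and 0.816% lower at an adjusted p under 0.05. None of the 10 fell in edgeR, DESeq2 or limma-voom, and none had an unadjusted p under 0.05 in that direction. All 10 fitted log2 fold changes were positive, though those of Areg and Erbb3 turned negative under some alternatives, against 48.7% of all genes tested, and their median was 1.01 against -0.01. For the 7 genes that passed the filter on low counts in every control library the median was 0.82. Of the family genes Erbb4, Egf, Nrg2 and Nrg4, 3 were positive and 1 negative. The 10 were chosen with earlier results of these data known, so their shares and median describe them and test nothing. The groups did not overlap for 6 of 7 ligands and 1 of 3 receptors, against 20.3% of all genes; without Ereg and Btc, which the filter on low counts kept only through Eed cKO, it was 4 of 5 ligands. In sorted cells measured in bulk, fewer cells of a type and less RNA per cell cannot be told apart.

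**Figure D1:**
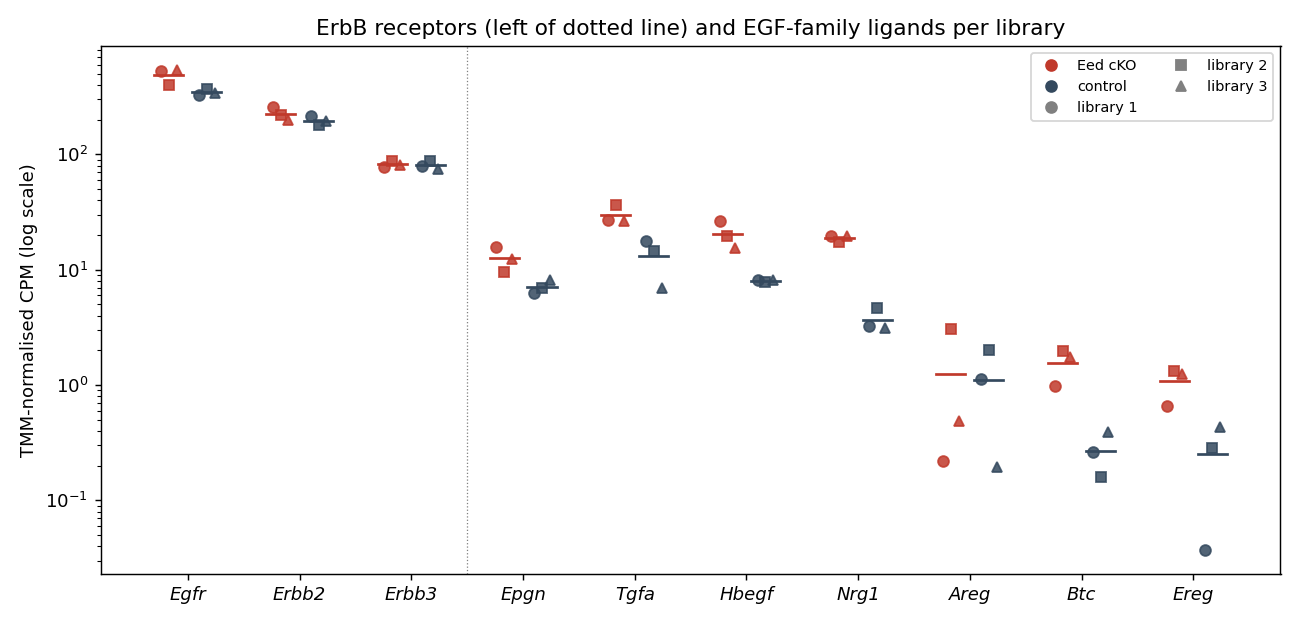
Points are TMM-normalised CPM (log scale) of each library for the 3 receptor and 7 ligand genes, Eed cKO left of control; bars are group means of 3 libraries. Receptors lie between 75.2 and 540 CPM in all libraries, and the Nrg1, Hbegf and Tgfa points of Eed cKO all lie above those of control.

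Not every gene was measured equally well. All 10 passed the filter on low counts (at least 10 counts scaled to the median library, 0.379 CPM, in 3 libraries), but Ereg and Btc reached that level in only 1 control library each, so they were kept through Eed cKO. Areg reached it in 2 libraries of each group. The other 7 genes reached it in every library, and their median log2 fold change was 0.82.

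Egfr, the receptor for most of the ligands (chromosome 11, 16752203 to 16918158, plus strand, GRCm38), had 528, 398 and 540 CPM in Eed cKO 1, 2 and 3, and 330, 369 and 339 CPM in control 1, 2 and 3. Every Eed cKO value lay above every control value, with Eed cKO 2 close to the highest control. The means were 489 ± 79.1 CPM in Eed cKO and 346 ± 20.4 CPM in control, and the log2 fold change of 0.50 ± 0.16 (95% interval 0.15 to 0.85) did not pass (edgeR adjusted p 0.124). Over 14 alternatives its adjusted p ran from 0.0619 to 0.388.

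Erbb2 (chromosome 11, 98412470 to 98437716, plus strand), the ligandless partner, had 255, 220 and 199 CPM in Eed cKO and 213, 180 and 195 CPM in control. The groups overlapped, and the log2 fold change was 0.20 ± 0.16 (95% interval -0.15 to 0.54; edgeR adjusted p 0.668). Erbb3 (chromosome 10, 128567523 to 128589652, minus strand), a neuregulin receptor with little kinase activity of its own, had 77.2, 87.9 and 80.9 CPM in Eed cKO and 79.0, 88.3 and 75.2 CPM in control. The values of Erbb3 interleaved, and its 95% interval of -0.33 to 0.38 on the log2 scale leaves changes of that size possible in either direction (log2 fold change 0.02, edgeR adjusted p 0.978).

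Nrg1, encoding neuregulin 1, which activates Erbb3 and Erbb4 (chromosome 8, 31814551 to 32884029, minus strand), had 19.5, 17.5 and 19.7 CPM in Eed cKO 1, 2 and 3, and 3.25, 4.67 and 3.12 CPM in control 1, 2 and 3. The lowest Eed cKO library was well above the highest control, and the Eed cKO libraries lay close together. Nrg1 averaged 18.9 ± 1.18 CPM in Eed cKO and 3.68 ± 0.855 CPM in control (log2 fold change 2.36 ± 0.30, edgeR adjusted p 0.000359), and was called in all 14 alternatives, at log2 fold changes of 2.25 to 2.58. The count sums all isoforms, and 482 of its exonic bases are shared with a long non-coding RNA gene on the opposite strand. The strand setting of the counting is not given, so reads on those bases are uncertain.

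Hbegf, encoding heparin-binding EGF-like growth factor, a ligand of Egfr that wounding induces in keratinocytes (chromosome 18, 36504927 to 36515805, minus strand), had 26.7, 19.7 and 15.4 CPM in Eed cKO and 8.08, 7.77 and 8.08 CPM in control. The control libraries were nearly equal, while the Eed cKO libraries spread, with Eed cKO 1 highest. The means were 20.6 ± 5.69 CPM in Eed cKO and 7.98 ± 0.183 CPM in control (log2 fold change 1.37 ± 0.27, edgeR adjusted p 0.0103). Without Eed cKO 1 the call was lost, with edgeR adjusted p 0.0501 at a fitted log2 fold change of 1.14.

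Tgfa, encoding transforming growth factor alpha, an Egfr ligand whose loss gives mice a wavy coat (chromosome 6, 86195223 to 86275719, plus strand), had 27.1, 36.4 and 26.4 CPM in Eed cKO and 17.7, 14.6 and 6.91 CPM in control. The groups did not overlap, and the lowest value was in control 3. The means were 30.0 ± 5.61 CPM in Eed cKO and 13.1 ± 5.55 CPM in control (log2 fold change 1.20 ± 0.31, edgeR adjusted p 0.0425). This call was kept without control 1 but lost whichever 1 of the other 5 libraries was left out (edgeR adjusted p 0.0568 to 0.188), and without control 3 the log2 fold change was 0.89. Tgfa shares 118 exonic bases with an uncharacterised transcript on the opposite strand.

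The other 4 ligand genes lie next to each other on chromosome 5 within 376 kb, in the order Epgn, Ereg, Areg and Btc, and none was called. Epgn, encoding epigen (91027464 to 91035215, plus strand), had 15.7, 9.59 and 12.5 CPM in Eed cKO and 6.25, 6.93 and 8.20 CPM in control. Its groups did not overlap, but the log2 fold change of 0.82 ± 0.31 did not pass (edgeR adjusted p 0.195). Btc, encoding betacellulin (91357261 to 91402994, minus strand), had 27, 49 and 36 counts in Eed cKO and 7, 5 and 10 counts in control, or means of 1.56 ± 0.515 CPM in Eed cKO and 0.271 ± 0.116 CPM in control. The Btc groups were apart, but the difference did not pass (log2 fold change 2.52 ± 0.86, edgeR adjusted p 0.142).

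Ereg, encoding epiregulin (91074622 to 91093646, plus strand), had 18, 33 and 26 counts in Eed cKO and 1, 9 and 11 counts in control. Its log2 fold change was 2.08 ± 0.99 (edgeR adjusted p 0.355), and 141 of its exonic bases are shared with an antisense gene. Areg, encoding amphiregulin, an autocrine growth factor of keratinocytes (91139599 to 91148432, plus strand), had 6, 76 and 10 counts in Eed cKO and 30, 63 and 5 counts in control. The Areg groups overlapped across their whole range, with libraries numbered 2 highest in both, and the log2 fold change of 0.17 ± 1.03 has a 95% interval of -2.04 to 2.38 (edgeR adjusted p 0.972). At these counts a difference in Areg of up to several fold was not detectable.

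The nearest protein-coding genes on both sides of the cluster had negative log2 fold changes without passing. They were -0.88 ± 0.47 for Mthfd2l, a mitochondrial folate enzyme gene 6.1 kb from Epgn (edgeR adjusted p 0.419), and -0.51 ± 0.23 for Parm1, 114.6 kb from Btc (edgeR adjusted p 0.309).

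**Figure D2:**
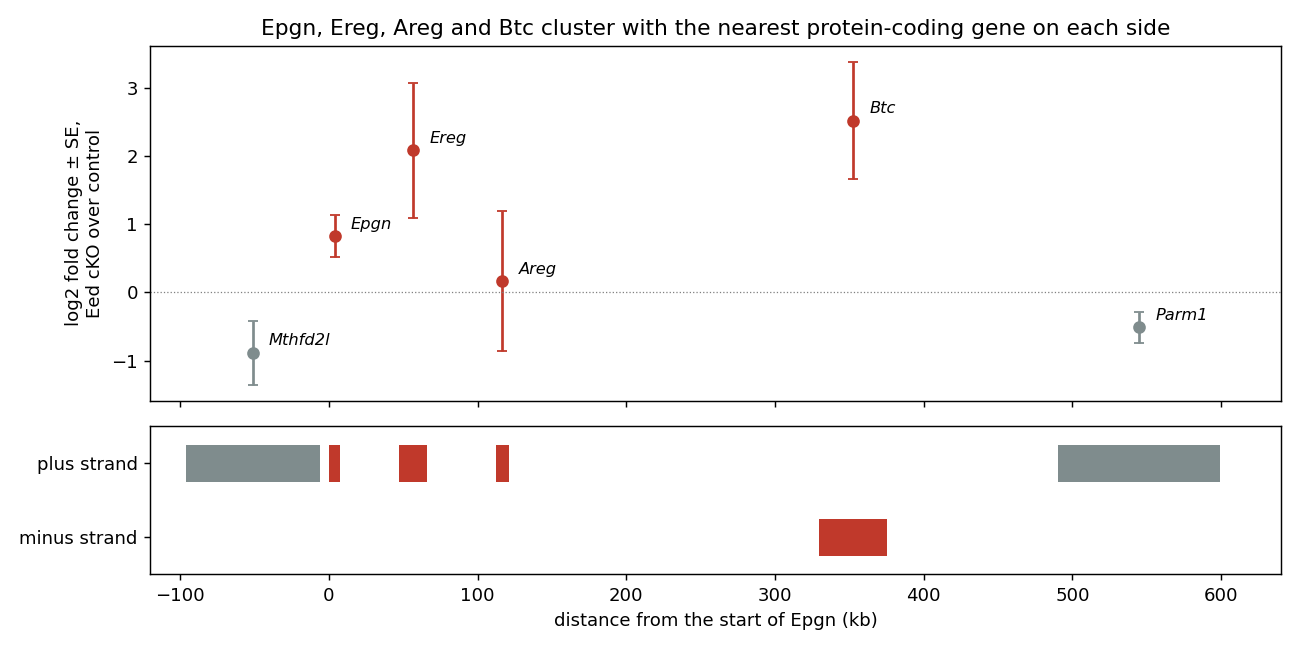
Upper panel: log2 fold change (Eed cKO over control) with its SE for the 4 ligand genes of the cluster (red) and the flanking genes Mthfd2l and Parm1 (grey), by distance from the start of Epgn in kb. Lower panel: gene bodies by strand; the ligand genes have values of 0.17 to 2.52 and the flanking genes -0.88 and -0.51.

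Levels of different genes were compared as CPM per kilobase of merged exons. Egfr and Erbb2 were the highest of the family. Egfr had 43.1 ± 6.99 CPM per kb in Eed cKO and 30.6 ± 1.80 in control, and Erbb2 had 43.1 ± 5.51 in Eed cKO and 37.6 ± 3.24 in control (SD, n = 3 each). The order of Erbb2 and Egfr does not hold beyond the spread in Eed cKO. In CPM without division by length, Egfr was above Erbb2 in every library. Erbb3 followed at 13.6 ± 0.900 CPM per kb in Eed cKO and 13.4 ± 1.12 in control. Among ligands Epgn had the highest mean in both groups, although Tgfa was above it in Eed cKO 2. That rank rests on the division by merged exon length, 1.807 kb for Epgn. In CPM the means of Epgn (12.6 in Eed cKO, 7.13 in control) were below those of Tgfa (30.0 and 13.1) and Hbegf (20.6 and 7.98). Epgn was at 6.98 ± 1.70 CPM per kb in Eed cKO and 3.94 ± 0.549 in control. Tgfa had 4.62 ± 0.864 CPM per kb in Eed cKO and 2.01 ± 0.855 in control and Hbegf 4.26 ± 1.18 CPM per kb in Eed cKO and 1.65 ± 0.0379 in control, and these neighbours did not differ beyond their spread in either group. Nrg1 had 1.83 ± 0.114 CPM per kb in Eed cKO and 0.356 ± 0.0826 in control, over a merged exon length of 10.351 kb that holds several isoforms and so lowers the value. Areg, Btc and Ereg lay between 0.262 and 1.03 CPM per kb in Eed cKO and between 0.0599 and 0.914 CPM per kb in control.

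Summed over the 7 ligands, the level per kilobase was 20.8, 20.0 and 17.2 in Eed cKO and 9.16, 9.90 and 7.93 in control, and summed over the 3 receptors it was 109, 91.9 and 99.3 in Eed cKO and 83.2, 81.8 and 79.9 in control. Both sums were apart between the groups, and no test was made on them. Within the ligand sum the share of Nrg1 was 9.04%, 8.49% and 11.1% in Eed cKO and 3.43%, 4.55% and 3.81% in control. Nrg1 was the only 1 of 10 shares without overlap (exact two-sided permutation p 0.1, the smallest that 3 against 3 libraries can give; 0.5 after adjustment over 10 shares). The share of Epgn averaged 36.2 ± 8.37% in Eed cKO and 44.6 ± 10.98% in control (exact permutation p 0.6), and that of Egfr among receptors 43.1 ± 4.94% in Eed cKO and 37.5 ± 2.41% in control (exact permutation p 0.2).

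**Figure D3:**
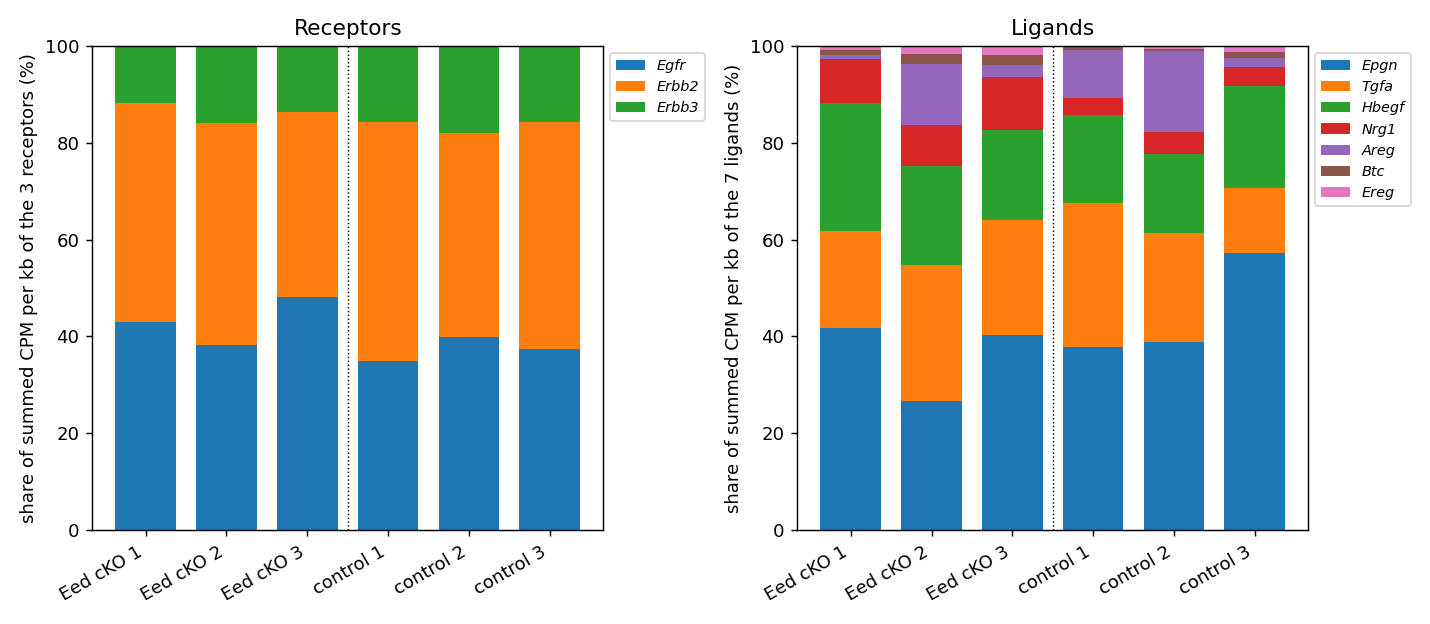
Stacked bars give, for each library, the share (%) of each gene in the summed CPM per kb of the 3 receptors (left panel) and of the 7 ligands (right panel), with the 3 Eed cKO libraries left of the 3 control libraries. The Nrg1 band is 8.49% to 11.1% in Eed cKO and 3.43% to 4.55% in control, while the other bands overlap between the groups.

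The remaining genes of the family were at most 3.99 CPM in any library. Erbb4, a neuregulin receptor, averaged 0.613 ± 0.255 CPM in Eed cKO and 0.446 ± 0.221 CPM in control (log2 fold change 0.46, edgeR adjusted p 0.901). Egf averaged 2.24 ± 0.785 CPM in Eed cKO and 0.770 ± 0.790 CPM in control (log2 fold change 1.54, edgeR adjusted p 0.426). The log2 fold change of Egf was 1.13 without control 2 and 2.81 without control 3, and Egf shares 1107 exonic bases with antisense genes. Nrg2 averaged 1.45 ± 0.855 CPM in Eed cKO and 0.535 ± 0.180 CPM in control (log2 fold change 1.43, edgeR adjusted p 0.490) and Nrg4 2.34 ± 0.905 CPM in Eed cKO and 2.48 ± 1.32 CPM in control (log2 fold change -0.08, edgeR adjusted p 0.977), of which 545 exonic bases are shared with other genes. Nrg3 had 1 count in all libraries together and was not tested. Thus 0 of the 4 tested were called by edgeR, DESeq2 or limma-voom. At an unadjusted p under 0.05 the count was 0 in edgeR and DESeq2 and 1 in limma-voom, against 2185 of all 14700 genes in edgeR.

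The genes that release ligands, restrain receptors and relay their signal mostly did not pass. Over all genes tested, edgeR called 3.39% higher and 0.816% lower. Of 11 ligand-release genes, 1 rose, 0 fell and 10 did not pass (median log2 fold change 0.12). The gene that rose was Bace2, an aspartyl protease whose relative Bace1 cleaves neuregulin 1, at 20.1, 12.4 and 12.6 CPM in Eed cKO and 6.995, 5.78 and 7.38 CPM in control (log2 fold change 1.16, edgeR adjusted p 0.0478). The Bace2 call was lost whichever 1 library was left out (edgeR adjusted p 0.0782 to 0.177) and in limma-voom (adjusted p 0.0538). Adam17, the main protease releasing Egfr ligands, averaged 96.6 ± 7.89 CPM in Eed cKO and 97.7 ± 2.69 CPM in control (log2 fold change -0.02, 95% interval -0.36 to 0.33), a sign that turns without control 2, without Eed cKO 1 and without both libraries numbered 1.

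Of 16 genes that restrain the receptors, 1 rose, 0 fell and 15 did not pass (median log2 fold change 0.04). The edgeR shares over all genes were 3.39% higher and 0.816% lower. Of the 16, 8 had positive and 8 negative log2 fold changes. At an unadjusted p under 0.05, edgeR, DESeq2 and limma-voom each had 2 higher and 2 lower, against 2185 of all 14700 genes in edgeR. In edgeR the lower were Lrig3 (log2 fold change -0.40, edgeR adjusted p 0.293) and Cblb (-0.36, edgeR adjusted p 0.316). The higher were Ptprk and Sh3kbp1 (log2 fold change 0.49, edgeR adjusted p 0.177). Ptprk, a receptor phosphatase that acts on EGFR in human keratinocytes, rose to 62.9, 70.0 and 80.3 CPM in Eed cKO, against 39.6, 45.6 and 41.3 CPM in control (log2 fold change 0.75, edgeR adjusted p 0.0291). Its call was kept without Eed cKO 1 and lost whichever 1 of the other 5 libraries was left out (edgeR adjusted p 0.053 to 0.142). Lrig1, which lowers receptor levels, averaged 141 ± 33.4 CPM in Eed cKO and 133 ± 10.1 CPM in control (log2 fold change 0.08, and -0.10 without Eed cKO 3). Errfi1, a feedback inhibitor of the kinase, averaged 130 ± 10.7 CPM in Eed cKO and 108 ± 10.4 CPM in control (log2 fold change 0.27, edgeR adjusted p 0.493).

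Of 22 signal relay genes, 0 rose and 0 fell in edgeR, DESeq2 and limma-voom (median log2 fold change -0.08). Over all genes tested, edgeR called 3.39% higher and 0.816% lower. At an unadjusted p under 0.05, edgeR had 2185 of all 14700 genes, in either direction. Each tool had 2 relay genes at that level, both lower. In edgeR these were the Ras exchange factor gene Sos1 (143 ± 23.8 CPM in Eed cKO and 189 ± 21.9 CPM in control, log2 fold change -0.40, edgeR adjusted p 0.291) and the adaptor gene Gab1 (221 ± 25.7 CPM in Eed cKO and 283 ± 28.8 CPM in control, log2 fold change -0.36, edgeR adjusted p 0.308). Of 20 transcripts commonly induced by ERK, 1 rose, 0 fell and 19 did not pass in edgeR (median log2 fold change 0.23). In DESeq2 3 rose, Ccnd1, Dusp6 and Myc, against 811 higher of all 16640 genes with an adjusted p there. Ccnd1, encoding the G1 cyclin D1, rose to 480, 473 and 402 CPM in Eed cKO, against 194, 157 and 247 CPM in control (log2 fold change 1.18, edgeR adjusted p 0.00180), and stayed called whichever 1 library was left out. Dusp6, a phosphatase of ERK and its feedback target, had 26.0, 23.2 and 23.2 CPM in Eed cKO and 15.0, 8.60 and 16.8 CPM in control (log2 fold change 0.84, edgeR adjusted p 0.106; called in DESeq2, adjusted p 0.0427, and with the replicate block, edgeR adjusted p 0.0382). Myc, a growth-promoting transcription factor, had 419, 312 and 349 CPM in Eed cKO and 293, 219 and 197 CPM in control, without overlap (log2 fold change 0.61, edgeR adjusted p 0.0917). Myc was also called with no filter, with the replicate block, without control 1 and without both libraries numbered 1. Of the 20 ERK target transcripts, 15 had positive and 5 negative log2 fold changes. At an unadjusted p under 0.05, edgeR had 4 higher and 1 lower, Spred2 (log2 fold change -0.40, edgeR adjusted p 0.208). Spry4 was also lower without overlap (log2 fold change -1.02, edgeR adjusted p 0.528), at no more than 4.19 CPM. Adam17, Lrig1, Lrig3, Cblb, Sh3kbp1, Errfi1, Dusp6, Myc, Spred2 and Spry4 were chosen after their values were seen.

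**Figure D4:**
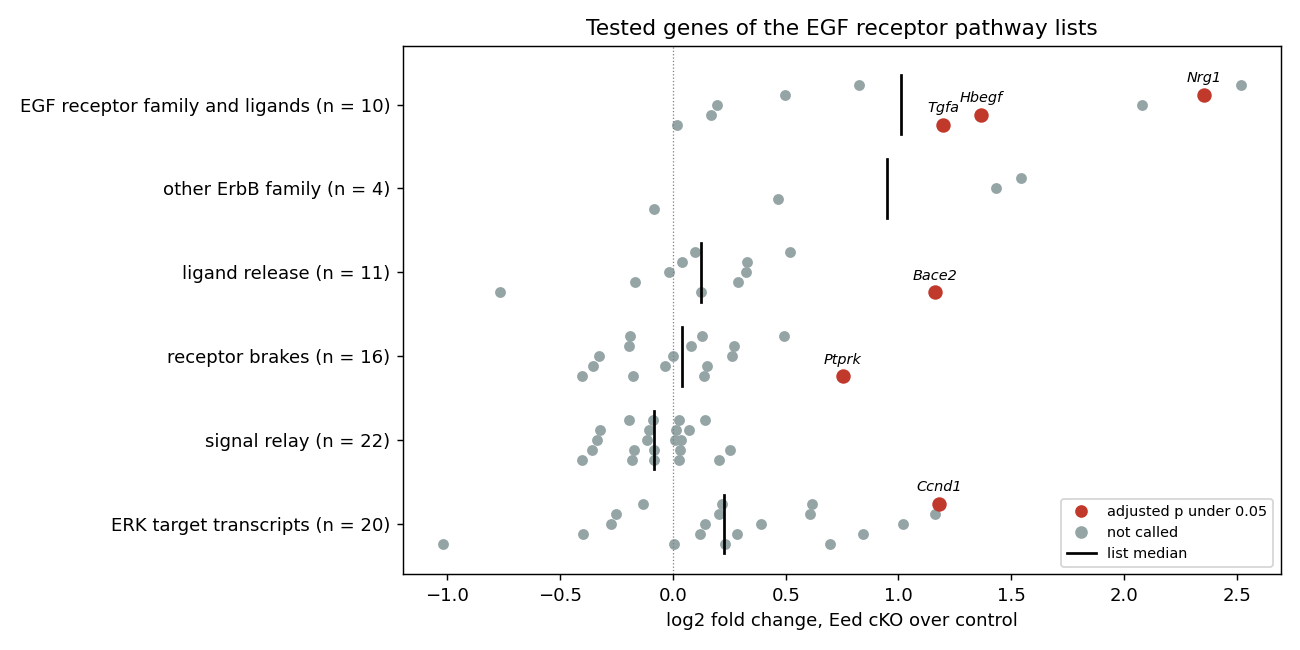
Each point is the log2 fold change (Eed cKO over control) of 1 tested gene in 6 gene lists; red points have an edgeR adjusted p under 0.05, grey points do not, and black bars are list medians. The median is 1.01 for the receptors and ligands described here and between -0.08 and 0.23 for the release, brake, relay and ERK target lists.

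Markers of other states and cell types moved with some of these results. Over all 14700 genes tested, edgeR called 3.39% higher and 0.816% lower, and 2185 had an unadjusted p under 0.05. DESeq2 called 811 higher of 16640 genes with an adjusted p. The 6 suprabasal markers, led by Krt1 and Krt10, summed to 4903, 7204 and 7771 CPM in Eed cKO and 3120, 4170 and 3815 CPM in control, with 1 of 6 called higher by edgeR (Krt10, log2 fold change 1.25, edgeR adjusted p 0.00126) and 3 of 6 by DESeq2. At an unadjusted p under 0.05, 4 of 6 were higher in edgeR, DESeq2 and limma-voom, in edgeR with log2 fold changes of 0.85 for Krt1, 0.92 for Lor and 0.54 for Sbsn beside Krt10. Of the 4 wound keratins, Krt6a (111 ± 12.9 CPM in Eed cKO and 6.53 ± 3.70 CPM in control), Krt6b (18.6 ± 5.05 CPM in Eed cKO and 2.23 ± 1.07 CPM in control) and Krt16 (118 ± 21.3 CPM in Eed cKO and 30.3 ± 5.78 CPM in control) rose (edgeR adjusted p 1.22e-05, 0.000413 and 8.33e-05), and Krt17 did not pass (510 ± 75.6 CPM in Eed cKO and 467 ± 139 CPM in control). Krt6a and Krt6b are near-identical, so the division of reads between them is uncertain. The part of these keratins in the ligand results was not tested.

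Melanocytes and Schwann cells are known to express Erbb3, and their markers were measured beside it. Sox10, a transcription factor of both, had 0.328, 1.89 and 1.65 CPM in Eed cKO and 0.0748, 0.383 and 0.391 CPM in control (log2 fold change 2.16, edgeR adjusted p 0.327). Pmel, the most abundant melanocyte marker, went the other way. It averaged 7.25 ± 0.557 CPM in Eed cKO and 13.6 ± 7.69 CPM in control (log2 fold change -0.90, edgeR adjusted p 0.318). Of the 6 melanocyte markers tested, 5 had positive and 1 a negative log2 fold change. The 8 melanocyte markers, led by Pmel and Mitf, summed to 12.6 to 22.6 CPM in Eed cKO and 9.26 to 27.3 CPM in control, and the defining Tyrp1 was at most 0.288 CPM in any library. The 8 Schwann cell markers, led by Mbp, summed to 33.1 to 39.9 CPM in Eed cKO and 22.5 to 40.4 CPM in control, and of its members Foxd3 was at most 0.0401 CPM and Cdh19 at most 0.484 CPM in any library. In both lists no marker was called by edgeR (6 tested in each), DESeq2 or limma-voom. At an unadjusted p under 0.05 edgeR had 2 melanocyte markers, Sox10 higher and Pmel lower, and 1 Schwann cell marker, again Sox10. Over all genes that count was 2185 of 14700. The 8 fibroblast markers, led by Postn and Dcn, summed to 1437 to 1503 CPM in Eed cKO and 1740 to 2465 CPM in control, with 1 called lower (Postn). Postn weighed most in that sum, averaging 866 CPM in Eed cKO and 1645 CPM in control. Dcn went the other way, averaging 327 ± 65.4 CPM in Eed cKO and 215 ± 87.7 CPM in control (log2 fold change 0.61, edgeR adjusted p 0.278). Of the 8 fibroblast markers, 3 had positive and 5 negative log2 fold changes. The 8 myeloid and Langerhans markers, led by Cd74 and Csf1r, summed to 59.5 to 338 CPM in Eed cKO and 120 to 455 CPM in control, with 1 called lower by edgeR (Cx3cr1) and 2 by DESeq2, and the Langerhans gene Cd207 had no count in Eed cKO and at most 0.299 CPM in control. All 7 tested had negative log2 fold changes (median -0.965), against 7543 of all 14700 genes. At an unadjusted p under 0.05 edgeR had 3 of these 7, all lower. The 6 T cell markers, led by Thy1 and Ptprc, summed to 35.1 to 77.9 CPM in Eed cKO and 41.0 to 57.6 CPM in control. Of that list the defining Cd3e was at most 0.748 CPM and Cd3g at most 0.0374 CPM in any library. The 5 endothelial markers, led by Cdh5 and Pecam1, summed to 5.30 to 32.6 CPM in Eed cKO and 4.60 to 35.3 CPM in control. The 6 Merkel cell markers, led by Sox2 and Isl1, summed to 7.75 to 14.1 CPM in Eed cKO and 0.195 to 1.82 CPM in control. Of the Merkel list, 4 of 6 were called higher by DESeq2, and 2 of 4 tested rose in edgeR, Sox2 (185, 22 and 31 counts in Eed cKO) and Isl1 (135, 73 and 26 counts), both with no count in control. The part of these markers in the ligand results was not tested.

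Across the 6 libraries, the tested genes whose log2 CPM followed each called ligand most closely were Emx2, Gata6 and Zfhx4 for Nrg1 (Pearson r 0.999, 0.998 and 0.997), Sfn, Igfbp2 and Rraga for Hbegf (r 0.997, 0.995 and 0.994) and Hrc, Snhg4 and Pitpnc1 for Tgfa (r 0.994, 0.990 and 0.989). Of the 14700 genes tested, 238 had r above 0.95 with Nrg1, 119 with Hbegf and 48 with Tgfa. With 6 points in 2 groups, such values do not single out the genes named.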

How the data were processed

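RNA was measured in 3 Eed cKO and 3 control libraries, grouped by their titles. Per the labels' protocols, total RNA from sorted cells was amplified and sequenced as single reads. The authors deposited raw counts per gene symbol, 1 library a file, without normalization. Without saying what each did, the submitters' processing notes list mm10 and the tools HTSeq 0.6.1, TopHat2 2.0.13, DESeq2 1.6.3 and Cufflinks 2.2.1. Which annotation and strand setting were used is not given in the sources used. Of 24453 symbols, 4791 had no count.

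In R 4.3.3 with edgeR 4.0.16, filterByExpr on the group kept 14700 genes, TMM factors scaled the libraries, and the quasi-likelihood F-test of genotype alone was adjusted by Benjamini-Hochberg over all of them (threshold 0.05). Log2 fold changes carry edgeR's shrinkage by its prior count; the SE is the log2 fold change divided by the square root of F. The biological coefficient of variation was 0.334.

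GENCODE M21 (GRCm38, equivalent to mm10) gave positions and merged exon lengths. Shares were compared with exact permutation tests (scipy 1.17.1). Alternatives were RLE and upper-quartile scaling, 2 other filters on low counts, DESeq2 1.42.0, limma-voom (limma 3.58.1), a replicate block, and leaving out libraries. The members and lists were chosen with earlier results of these data known, so no list was tested. The naming rule took all receptors and ligands, the rest of their family, Eed, Ezh2 and Ezh1, called pathway genes (or the 2 of smallest p), all wound keratins, the 2 most abundant genes of each marker list, the genes flanking the cluster and the 3 genes most correlated with each called ligand. Other markers named, Sox10, Tyrp1, Epcam and Postn among them, were chosen after their values were seen. Some marker genes are not reported here. Flg and Trdc of the lists were not among the symbols, and Sox10 and Ptprc each stand in 2 marker lists.

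The pipeline was tested on simulated data with known changes in randomly chosen genes. It called 3.33% of 1.5-fold, 34% of 2-fold, 72% of 4-fold and 88.7% of 8-fold changes (150 each), and 4.81% of its calls were false. A gene that did not pass may therefore still have changed, above all by 2-fold or less. Figures used matplotlib 3.10.9.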

Additional observations from a re-analysis of the deposited data

How the results depend on the processing

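Nrg1 was called in all 14 alternatives, Hbegf in 12 and Tgfa in 9. The count of called receptor and ligand genes was 3 higher and 0 lower, 1 to 3 and 0 when 1 library was left out, with 1 (Nrg1) without Eed cKO 1. It was 2 (Tgfa and Nrg1) without both libraries numbered 1, where Hbegf had an edgeR adjusted p of 0.0675. Over all genes 499 were higher and 120 lower, against 302 to 456 and 35 to 118 when 1 library was left out. The counts were 811 and 273 in DESeq2, 737 and 257 with no filter on low counts and 675 and 269 with the replicate block. Pathway genes called higher numbered 3, against 5 with no filter, 5 in DESeq2, 6 with the block and 1 to 3 when 1 library was left out; none was called lower in any of these. Ereg and Btc had no value with the filter of at least 1 CPM in 3 libraries.

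No label says that replicate numbers mark shared animals. Deviations of same-numbered libraries correlated at 0.292, 0.11 and 0.023 for numbers 1, 2 and 3. Libraries numbered 1 correlated at -0.209 to -0.121 with those numbered 2 or 3 of the other group. Deviations from a group mean cancel within the group, so the positive value for number 1 forces negative ones there. These are therefore no separate observation. Control 1 and Eed cKO 1 also had the highest myeloid and Langerhans sum of their group (455 and 338 CPM). What they share was not tested. Eed cKO 2 correlated more with control 3 (0.119) than with control 2. As no label gives pairs, the main fit used none, and the block was an alternative. The block kept the calls of Nrg1, Hbegf and Tgfa.

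Some log2 fold changes turned sign; leaving out 1 library gave up to 0.94 for Areg, 0.10 for Erbb3, 0.39 for Krt17 and 0.25 for Lrig1, and as low as -0.37 for Nrg4, -0.17 for Ezh1 and -0.07 for Adam17. Areg was at -0.24 in limma-voom, -0.09 with the block, -0.33 without control 3 and -1.65 without Eed cKO 2. Erbb3 was at -0.03 without control 3 and -0.02 without Eed cKO 2. Nrg4 was at 0.46 and Ezh1 and Adam17 at 0.02 without control 2. Nrg4 was at 0.18, Ezh1 at 0.03 and Lrig1 at -0.10 without Eed cKO 3. Adam17 was at 0.03 without Eed cKO 1 and 0.02 without both libraries numbered 1, and Krt17 at -0.06 without control 1 and -0.10 without both. The difference in share of Tgfa (2.01 percentage points, Eed cKO minus control) was -2.98 without division by gene length and -2.25 to 5.91 when 1 library was left out, and that of Hbegf (3.29) was -0.58 without that division. The cause was not tested. Ezh2 was called with no filter, with the block, without control 1 and without both libraries numbered 1 (edgeR adjusted p 0.0123 to 0.0428).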
